A study of Mus musculus with 18 samples.

Results

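The p53 pathway was followed here through 9 genes of the 51467 in the count table, in ribosome fractions of mouse embryonic stem cells (ESCs). The genes were Trp53, which encodes p53, and Mdm2, Mdm4, Ccng1, Bax, Bbc3, Phlda3, Trp53inp1 and Zmat3, a given list of p53 pathway genes, found by matching their symbols to the Ensembl identifiers of the table. The study asked how loss of DDX6, an RNA helicase of translational repression and mRNA decay, alters the ribosome association of mRNAs. The cells were V6.5 ESCs, either wild-type (WT) or lacking Ddx6 (Ddx6 KO). All were cultured with serum, LIF and 2i (PD0325901 and CHIR99021), and ribosomes were halted with cycloheximide before lysis. Each of 3 WT and 3 KO sucrose gradients gave a monosome fraction, a low polysome fraction of 2 to 4 ribosomes and a high polysome fraction of 4 or more, hence 18 libraries in 6 groups. Of the KO gradients, the first was from clone 1 and the other two from clone 2, so clone 1 rests on a single gradient. Nothing in the labels states that the gradients of a genotype came from separate cultures, and p-values measure only the spread between these gradients.

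p53 is a transcription factor that is held at low levels by the ubiquitin ligase Mdm2, itself a p53 target, and is dampened by the related protein Mdm4, so that the pathway contains its own feedback. When p53 is stabilised by DNA damage or other stress it raises genes of cell cycle arrest, DNA repair and apoptosis. In mouse ESCs, which lack a strong G1 checkpoint, p53 is known for driving differentiation after damage, in part through repression of Nanog.

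QuantSeq reads come from transcript 3′ ends, so levels are given as CPM, read counts brought to a common library total and scaled by TMM, without division by length. The libraries held 2543617 to 11474550 gene counts, with the WT monosome libraries shallowest at 2543617 to 4894677, and Spearman correlations between libraries of a group were 0.969 to 0.992. Ddx6 itself was lower in all 9 KO libraries. It ranged from 143 to 212 CPM in WT, from 55.3 to 82.7 CPM in clone 1 and from 9.68 to 26.7 CPM in clone 2, with a log2 change of -2.75 (SE 0.38, adjusted p = 5.2e-05) over the fractions. All 10 ESC markers were expressed, with summed levels of 3219 to 4169 CPM in WT and 2657 to 3653 CPM in KO. The 8 feeder fibroblast markers summed to at most 11.1 CPM in any library, with Col3a1 at 0 throughout. The 4 primed epiblast markers summed to 103 to 149 CPM in WT and 32.7 to 80.4 CPM in KO, with Fgf5 at 0 in every library, and the 6 primitive endoderm markers to 4.41 to 11.6 CPM in WT and 7.44 to 27.1 CPM in KO. The part of these marker differences in the values below was not tested.

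The sequences of the p53 genes were examined at both ends, since p53 acts on promoters and DDX6 acts on the 3′ UTR through miRNAs. RefSeq promoter windows (GRCm38.p6, 250 bases before to 50 after a start) were at hand for 7 of the 9 genes. They were searched for pairs of the p53 decamer, the repeat unit of the p53 response element, with a spacer of 0 to 13 bases. The decamer consensus is its own reverse complement, so both strands were covered. Ccng1 and Bax each held a pair with 1 mismatch, and 1.09% of all 32851 promoter windows held a pair with at most 1. The element lay 195 to 176 bases before the Ccng1 start and 212 to 192 bases before the Bax start. These stretches are shown because they are the closest matches among the genes, with the 2 decamers in capitals, on the minus strand at chr11:40755422-40755521 and chr7:45467050-45467148.

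Ccng1: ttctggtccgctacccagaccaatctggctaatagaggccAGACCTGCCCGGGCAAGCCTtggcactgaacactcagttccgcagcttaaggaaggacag
Bax: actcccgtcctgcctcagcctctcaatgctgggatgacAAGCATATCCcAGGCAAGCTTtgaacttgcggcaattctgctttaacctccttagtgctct

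The best pairs of the other 5 genes, Trp53, Mdm2, Mdm4, Bbc3 and Phlda3, had 3 or 4 mismatches, and 45.1% of all windows held a pair with at most 3. An exact decamer was present in the windows of 4 genes, Trp53, Mdm2, Ccng1 and Bax, against 8.36% of all windows. Cdkn1a, the p53 target that encodes p21 and was singled out after its values were seen, held a pair with 0 mismatches, as did 0.0731% of windows. A match is a stretch of letters and not a measured binding site, and elements outside the windows, such as the intronic element known for Mdm2, were not covered.

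At the other end, the longest annotated 3′ UTR of each gene was searched for sites of the ESC-enriched ESCC miRNAs and of the miR-17 family. The seeds of these families (bases 2 to 8, in capitals) differ by a shift of 1 base.

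mmu-miR-294-3p: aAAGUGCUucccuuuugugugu
mmu-miR-302b-3p: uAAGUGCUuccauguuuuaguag
mmu-miR-17-5p: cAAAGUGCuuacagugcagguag

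The sites searched were AGCACTTA (8mer), AGCACTT and GCACTTA for the ESCC seed, and GCACTTTA (8mer), GCACTTT and CACTTTA for the miR-17 seed. None of the 9 genes had an 8mer of either family, against 3.51% of 11745 tested genes for ESCC and 4.42% for miR-17. With shares this low, the absence is no result about the 9 genes. An ESCC site of 7 bases was present in 3 genes, Ccng1, Trp53inp1 and Zmat3, against 20.7% of 11745 tested genes with any ESCC site, and Ccng1 and Trp53inp1 also held a miR-17 site, against 21.5%. In Trp53inp1 the ESCC and miR-17 sites overlapped, on the plus strand, while Ccng1 and Zmat3 lie on the minus strand. The ESCC sites are shown in capitals in their 3′ UTR context at chr11:40750541-40750570, chr4:11174215-11174244 and chr3:32339093-32339122 (GRCm38), since they are all the ESCC sites found among the genes.

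Ccng1: gttactgaaatAGCACTTctttaaattacg
Trp53inp1: atgaacagcacAGCACTTtgccaaaaaacc
Zmat3: tgggtttccgaAGCACTTggaagttccctg

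In Ddx6 KO ESCs the 9 listed p53 genes were lower as a group. They were chosen with earlier results of these data known, so their counts beside all genes are descriptive and no test. Over the mean of the 3 fractions, all 9 log2 changes were negative, and 8 of 9 passed an adjusted p under 0.05 as lower in KO, while 28.2% of the 12705 genes tested were called lower and 28.4% higher. The exception was Phlda3. The median log2 change was -0.61 for the 9 genes and -0.02 for all genes tested. In each of the 9 genes all 3 KO gradients lay below all 3 WT gradients, a separation shown by 31% of all genes. These are levels within ribosome-bound RNA relative to other genes of the same libraries. In such bulk samples fewer cells of a type and less RNA per cell cannot be told apart, and no total RNA was analysed here. Leaving out 1 gradient at a time, 7 or 8 of the 9 genes were called, with 7 when the clone 1 gradient was left out. Trp53 was not called in 5 of these 6 fits, with adjusted p up to 0.14.

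**Figure D1:**
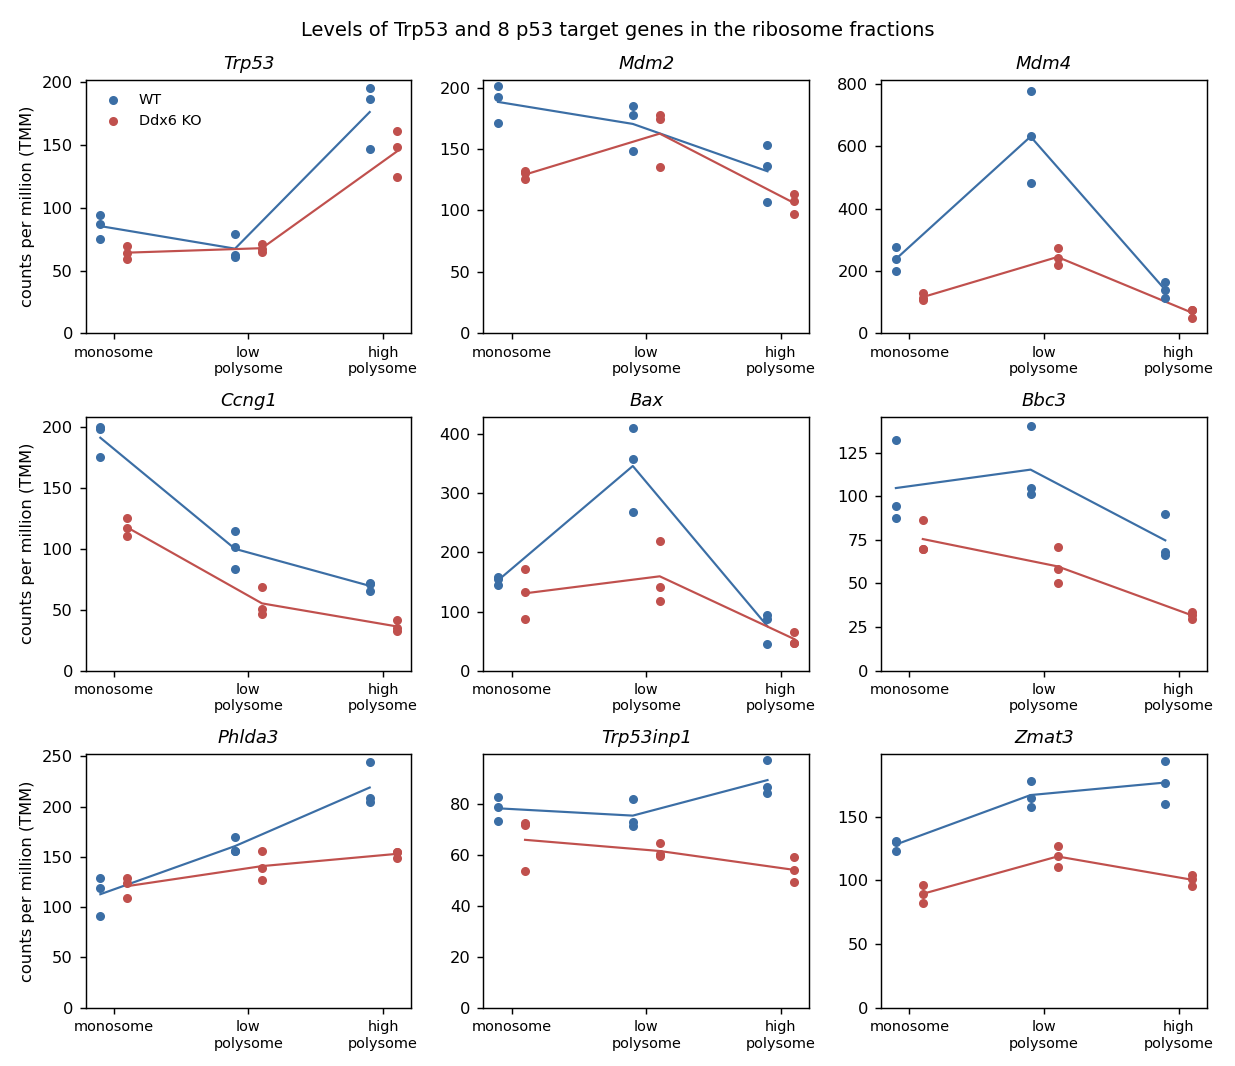
Levels of the 9 genes in CPM (TMM-scaled, linear axis from 0) across the 3 ribosome fractions; points are libraries (3 per group), lines join group means, blue is WT and red is Ddx6 KO. Mdm4 and Bax peak in the low polysome, Trp53 and Phlda3 are highest in the high polysome, and Ccng1 is highest in the monosome in both genotypes.

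Among the regulators, Mdm4 changed most. Its mean level over the fractions was 222, 292 and 311 CPM in WT gradients 1, 2 and 3 and 125, 112 and 132 CPM in KO gradients 1, 2 and 3. The lowest WT gradient was thus above the highest KO gradient, and the KO gradients of both clones lay close together. The log2 change was -1.15 (SE 0.12, adjusted p = 5.6e-06), or 0.451 of the WT level. In the low polysome, where Mdm4 was most abundant, WT libraries held 483, 632 and 776 CPM and KO libraries 242, 220 and 273 CPM. In the monosome the levels were 199.9, 237 and 278 CPM in WT against 107, 129 and 113 CPM in KO. High polysome levels were 113, 166 and 139 CPM in WT and 75.0, 49.8 and 74.1 CPM in KO. The 2 genotypes did not overlap in any fraction, and Mdm4 fell in all of them, with log2 changes of -1.03, -1.34 and -1.08 from monosome to high polysome. These calls were made in all 15 alternative analyses. Mdm4 lies on chromosome 1 (132959484 to 133030561, minus strand), and its longest annotated 3′ UTR, at 5436 bases, is longer than that of 96.8% of tested genes.

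Mdm2, the ubiquitin ligase that removes p53, was called lower in the monosome and in the mean over fractions. WT monosome libraries held 201, 171 and 192 CPM and KO monosome libraries 125, 130.4 and 132 CPM, which did not overlap, and the gene fell by 0.54 on the log2 scale there (SE 0.14, adjusted p = 0.0053). In the low polysome the ranges of 148 to 185 CPM in WT and 135 to 177 CPM in KO overlapped, and so did the high polysome ranges of 107 to 153 CPM and 96.8 to 113 CPM. The high polysome change of -0.30 (adjusted p = 0.084) was called in 4 of 15 alternatives, with DESeq2 among them (adjusted p = 0.025). The mean over fractions of Mdm2 was 159.5, 167 and 156 CPM in the WT gradients and 122, 130.2 and 138 CPM in the KO gradients, with no overlap and a log2 change of -0.31 (SE 0.08, adjusted p = 0.0077). This call was lost when the counts of the 3 fractions were summed instead of averaged on the log scale (adjusted p = 0.066 by limma-voom, 0.070 by edgeR and 0.073 by DESeq2). Such a sum weights the fractions by depth, which differed by genotype. Monosome libraries held 2543617 to 4894677 gene counts in WT and 7537656 to 7811071 in KO. The part of depth in the lost call was not tested. Mdm2 lies on chromosome 10 (117688875 to 117710758, minus strand).

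Trp53 showed the smallest change of the genes called. Its mean level over fractions was 109, 95.3 and 96.2 CPM in WT gradients and 87.7, 88.4 and 80.8 CPM in KO gradients. The ranges did not overlap, but the gap between them was only a few CPM. The log2 change was -0.22 (SE 0.09, adjusted p = 0.049), at the edge of the threshold, and 6 of 15 alternatives did not call it. Monosome levels were 86.8, 93.8 and 75.4 CPM in WT against 69.9, 63.7 and 59.1 CPM in KO, again separate, with a log2 change of -0.40 (adjusted p = 0.039). In the low polysome WT levels of 79.2, 62.7 and 60.5 CPM enclosed the KO levels of 65.0, 67.1 and 71.4 CPM. High polysome levels were 186, 147 and 195 CPM in WT and 148, 161 and 125 CPM in KO, which overlapped (log2 change -0.28, adjusted p = 0.097). The monosome call was also lost in 6 of 15 alternatives. Trp53 lies on chromosome 11 (69580359 to 69591873, plus strand). A processed copy, Trp53-ps, is annotated on chromosome 17 and had 0 counts in every library. The processed copy of Mdm4, on the X chromosome, had at most 4 counts in a library.

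The apoptotic effectors Bbc3 and Bax were both lower in KO. Bbc3 encodes PUMA, a BH3-only protein that releases the death effectors of the BCL2 family. Its mean level over fractions was 119, 86.8 and 84.6 CPM in WT and 51.7, 52.8 and 51.7 CPM in KO gradients, so that the KO gradients were nearly equal and the lowest WT gradient lay well above them. The log2 change was -0.88 (SE 0.12, adjusted p = 5.6e-05), or 0.545 of WT. By fraction, the monosome change of Bbc3 was -0.43 on the log2 scale (adjusted p = 0.055, not called). The low polysome change was -0.95 (adjusted p = 0.00013) and the high polysome change -1.22 (adjusted p = 1.5e-05). High polysome libraries held 89.97, 66.1 and 68.1 CPM in WT and 31.6, 29.6 and 33.8 CPM in KO. The monosome value was called in 9 of 15 alternatives, edgeR and DESeq2 among them. Bbc3 lies on chromosome 7 (16308393 to 16318205, plus strand).

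Bax, the pore-forming member of the BCL2 family, fell over the mean of the fractions by 0.62 on the log2 scale (SE 0.12, adjusted p = 0.00097), and the genotypes were separate by fraction in the low polysome only. There WT libraries held 359, 269 and 411 CPM and KO libraries 141, 220 and 118 CPM, with a log2 change of -1.15 (SE 0.26, adjusted p = 0.0012). Monosome levels of 145 to 158 CPM in WT lay within the KO range of 87.6 to 173 CPM. High polysome levels were 44.4 to 93.4 CPM in WT and 46.4 to 65.9 CPM in KO. Bax was the most variable of the genes between gradients, with SEs of 0.26 to 0.28 by fraction against medians of 0.19 to 0.21 over all genes. It lies on chromosome 7 (45461697 to 45466898, minus strand).

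Of the remaining target genes, Ccng1 and Zmat3 were lower in every fraction. Ccng1 encodes cyclin G1, which links p53 to Mdm2 through the phosphatase PP2A. Ccng1 levels fell from monosome to high polysome in both genotypes, with monosome levels of 199, 200.2 and 175 CPM in WT and 125, 117 and 111 CPM in KO. Its low polysome levels were 115, 101.4 and 83.8 CPM in WT and 68.9, 46.2 and 50.7 CPM in KO, and its high polysome levels 65.7, 72.0 and 71.3 CPM in WT and 41.2, 32.7 and 35.1 CPM in KO. WT and KO were separate in all 3 fractions, and in each of them clone 1 was the highest of the KO gradients. The log2 change over the mean of fractions was -0.84 (SE 0.10, adjusted p = 2.5e-05), or 0.560 of WT, and Ccng1 lies on chromosome 11 (40748552 to 40755311, minus strand).

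Zmat3, a zinc finger protein that binds RNA, had mean levels over fractions of 165, 156 and 146 CPM in WT and 105, 100.03 and 101.2 CPM in KO. The log2 change was -0.61 (SE 0.08, adjusted p = 5.7e-05). From monosome to high polysome its changes were -0.52, -0.49 and -0.81, each called in all 15 alternatives, with no overlap of the genotypes in any fraction. Its longest 3′ UTR, at 6692 bases, exceeds that of 98.4% of tested genes, and the gene lies on chromosome 3 (32334792 to 32366014, minus strand).

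Trp53inp1 and Phlda3 were lower in KO in the high polysome only, as far as the test called them. Trp53inp1, a stress protein that promotes p53 activity and autophagy, held 84.3, 97.2 and 86.6 CPM in WT high polysomes and 59.0, 54.1 and 49.2 CPM in KO. This separation gave a log2 change of -0.73 (SE 0.13, adjusted p = 9.8e-05). In the monosome and low polysome its log2 changes were -0.27 and -0.29 with adjusted p of 0.12 and 0.067. The genotypes did not overlap in either fraction, with WT monosomes at 73.3 to 82.7 CPM and KO monosomes at 53.6 to 72.5 CPM. Averaged over the fractions the log2 change was -0.42 (SE 0.09, adjusted p = 0.0012), and the gene lies on chromosome 4 (11156431 to 11174379, plus strand).

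Phlda3 encodes a pleckstrin homology protein that competes with AKT for membrane lipids. Its high polysome levels were 244, 204 and 208 CPM in WT and 155, 155 and 149 CPM in KO, a log2 change of -0.51 (SE 0.12, adjusted p = 0.0022). Monosome ranges of 90.8 to 129 CPM in WT and 110 to 129 CPM in KO overlapped (log2 change 0.09, adjusted p = 0.61). The mean over fractions changed by -0.20 (SE 0.08, adjusted p = 0.054) and was called in 6 of 15 alternatives. The fits on counts summed over the fractions were among them (adjusted p = 0.0065 by limma-voom, 0.0071 by edgeR and 0.0028 by DESeq2). Phlda3 lies on chromosome 1 (135766119 to 135769136, plus strand).

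By fraction, 5 of 9 genes were called lower in KO monosomes (Trp53, Mdm2, Mdm4, Ccng1 and Zmat3), against 20.1% of all genes. In the low polysome 5 were called lower (Mdm4, Ccng1, Bax, Bbc3 and Zmat3), against 24.3%, and in the high polysome 6 (Mdm4, Ccng1, Bbc3, Phlda3, Trp53inp1 and Zmat3), against 21.1%. No member was called higher in any fraction. The 3 comparisons use fractions of the same gradients and are not independent. Among the 3 genes with an ESCC site, Ccng1, Trp53inp1 and Zmat3, the mean over fractions was lower in KO in all, with 0.560, 0.745 and 0.656 of the WT level. The genes without a site were all lower as well, and their range of 0.4511 (Mdm4) to 0.8715 (Phlda3) encloses these values. A relation to the sites was not tested.

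**Figure D2:**
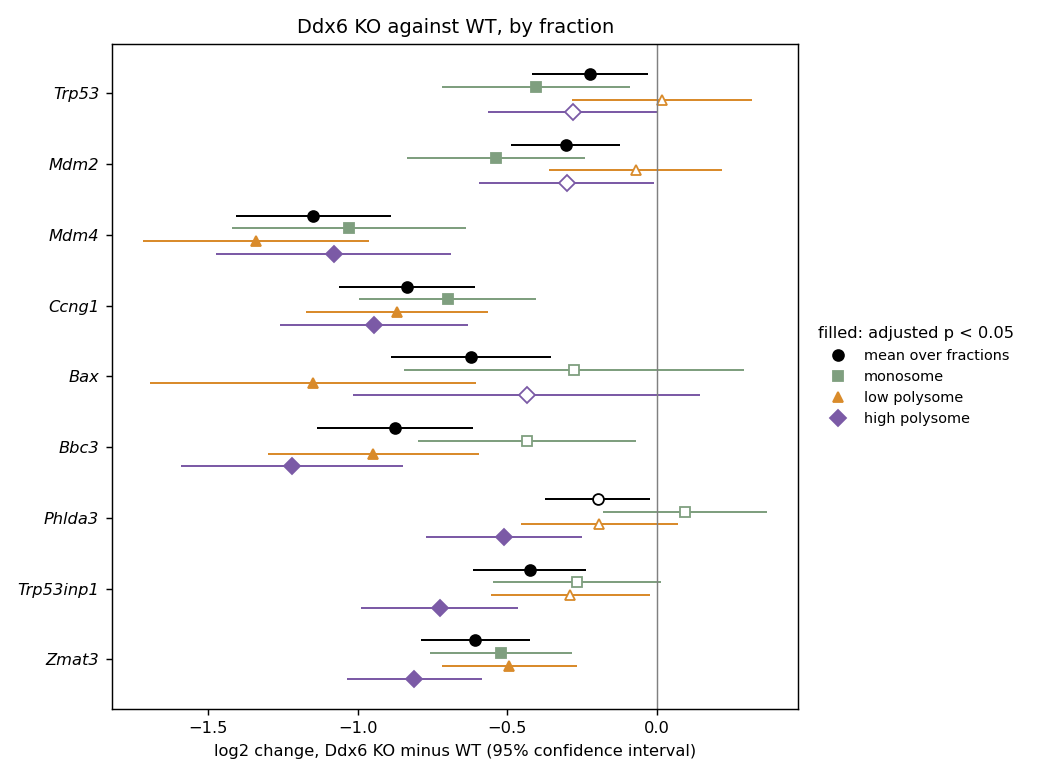
Log2 change of each gene, Ddx6 KO minus WT, with 95% confidence intervals, for the mean over fractions and for each fraction; filled symbols passed an adjusted p under 0.05. Mdm4, Ccng1 and Zmat3 lie left of 0 with filled symbols in all 4 comparisons, whereas Trp53 and Mdm2 have filled symbols for the monosome and the mean only.

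Next, the distribution of each mRNA over the fractions was examined in WT cells. Translation level is taken as the log2 ratio of high polysome to monosome. Of the 9 genes 3 were called higher in the high polysome, against 28.9% of all genes, and 5 lower, against 32.2%. Trp53 lay on the polysome side, with ratios of 1.099, 0.64 and 1.36 in gradients 1 to 3 and the highest fitted value of 1.04 (SE 0.15, adjusted p = 3.4e-06). Phlda3 followed with ratios of 1.42, 0.66 and 0.81, and Zmat3 with 0.57, 0.43 and 0.38. Trp53 and Phlda3 overlapped across gradients, while every Zmat3 ratio lay below the lowest ratios of both.

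At the other end, Ccng1 had WT ratios of -1.59, -1.47 and -1.29 (fitted -1.45, adjusted p = 3.1e-08). Bax spread widely, from -1.80 to -0.63, and the fitted values of Mdm4, Mdm2 and Bbc3 were -0.78, -0.52 and -0.46. The Bax range enclosed that of Ccng1 and overlapped that of Mdm4, and the Mdm4 and Mdm2 ranges overlapped, so the order of these neighbours is not set by the gradients. Trp53inp1 was called in neither direction, at 0.18 (adjusted p = 0.24). The negative regulators Mdm2 and Mdm4 thus lay on the monosome side and Trp53 on the polysome side in all 3 WT gradients. The Bbc3 value is the least firm, since 5 of 15 alternatives did not call it.

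The low polysome showed a different order. In WT the low polysome to monosome ratio was called higher for 4 genes, against 20.4% of all genes, and lower for 1, against 22.8%. Mdm4 had ratios of 1.27, 1.41 and 1.48 (fitted 1.38, adjusted p = 5.3e-06) and Bax of 1.18, 0.79 and 1.505 (fitted 1.16, adjusted p = 0.0015), so both were enriched in the low polysome and depleted from the high polysome. Phlda3 (0.51, adjusted p = 0.0038) and Zmat3 (0.38, adjusted p = 0.0094) were also higher, and Ccng1 was lower (-0.94, adjusted p = 2.4e-05). Without WT gradient 1, which has the shallowest monosome library, Phlda3 and Zmat3 were not called (adjusted p = 0.076 and 0.062), which left 3 calls.

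Coding length did not order the ratios. The shortest coding sequence, that of Phlda3 with 375 bases, had one of the highest ratios of high polysome to monosome. Bax with 576 and Bbc3 with 579 bases had negative ratios. Across the 9 genes Spearman's rho of coding length with the WT ratio was -0.18, and across 11767 tested genes it was 0.04. The first value describes 9 genes measured in the same libraries and carries no test.

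The high polysome to monosome ratio was also tested within KO cells. Trp53 and Phlda3 were called higher, 2 of 9 against 35% of all genes, and Mdm4, Ccng1, Bax and Bbc3 lower, 4 of 9 against 33.6%. Trp53 had KO ratios of 1.08, 1.33 and 1.07, and Ccng1 of -1.59, -1.82 and -1.65. Mdm2 (-0.29, adjusted p = 0.075), Trp53inp1 (-0.28, adjusted p = 0.062) and Zmat3 (0.17, adjusted p = 0.18) were not called. The Phlda3 value (0.34, adjusted p = 0.021) lost its call in 5 of 15 alternatives, with adjusted p up to 0.18, while Trp53inp1 was called in 5 and Mdm2 in 3 of them.

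**Figure D3:**
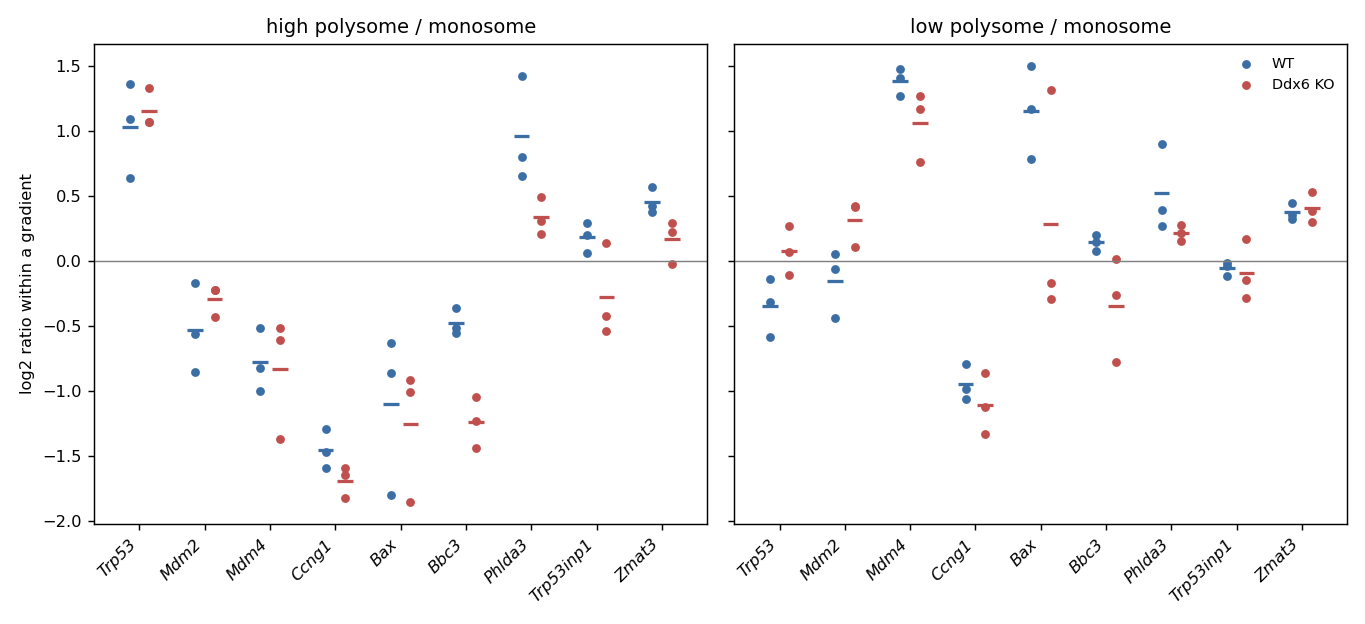
Log2 ratio of high polysome to monosome (left) and low polysome to monosome (right) within each gradient, for 3 WT (blue) and 3 Ddx6 KO (red) gradients; bars are means. The 3 KO ratios of Bbc3, Phlda3, Ccng1 and Zmat3 lie below all 3 WT ratios in the left panel, for Ccng1 only just, while those of Trp53 lie within the WT range.

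The KO effect on translation level, the KO ratio less the WT ratio, was called for 2 of the 9 genes. Both were lower, against 7.09% of all genes called lower and 10.7% called higher. For Bbc3 the ratios were -0.55, -0.51 and -0.36 in WT and -1.44, -1.23 and -1.04 in KO, and the difference was -0.79 (SE 0.25, adjusted p = 0.035). For Phlda3 they were 1.42, 0.66 and 0.81 in WT and 0.31, 0.50 and 0.21 in KO, and the difference was -0.61 (SE 0.18, adjusted p = 0.027). In both genes the genotypes did not overlap, and the 2 clones lay together. Such a separation was also seen in Ccng1 and Zmat3, which were not called. For Ccng1 it was minimal, with WT gradient 1 at -1.589 and KO gradient 1 at -1.593. The share of all genes with such a separation was not computed, so it is no result about these genes. Both calls were lost in some of the alternatives, which for Bbc3 included equal depth (adjusted p = 0.070). Bbc3 was not called in 5 of 6 fits that left out 1 gradient, with adjusted p of 0.073 to 0.094, and was called only without WT gradient 1. Phlda3 was not called in 3 of them (adjusted p = 0.0997 without WT gradient 1, 0.054 without KO gradient 1 and 0.13 without KO gradient 3). Neither gene was called without KO gradient 3. Neither was called without KO gradient 1 either, so that clone 2 alone gave no call for them.

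For the other 7 genes the difference did not pass the test. Trp53inp1 had the lowest adjusted p of these, with ratios of 0.20, 0.30 and 0.07 in WT and 0.14, -0.42 and -0.54 in KO and a difference of -0.46 (95% confidence interval -0.84 to -0.07, adjusted p = 0.088). Its clone 1 gradient lay within the WT range and its clone 2 gradients below it, and without the clone 1 gradient the difference was -0.66 (adjusted p = 0.014). Trp53inp1 was also called when scaled by library size (adjusted p = 0.048), with DESeq2 (0.034) and with only the groups compared (0.042), which brings the count to 3 of 9 in each of these fits. For Ccng1 and Zmat3 the differences were -0.25 and -0.29, with adjusted p of 0.43 and 0.21. For Trp53 the difference was 0.12 with an interval of -0.30 to 0.55, for Mdm2 0.24 with -0.18 to 0.65, and for Mdm4 -0.05 with -0.61 to 0.51, which allows changes of either direction. Mdm4 thus stood at 0.490, 0.395 and 0.473 of its WT level from monosome to high polysome, and no change in its translation level was detected.

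No gene was called for the KO effect on the low polysome to monosome ratio (4.71% of all genes) or on the high to low polysome ratio (4.42%) with limma, and edgeR and DESeq2 called 0 as well. At an unadjusted p under 0.05, 3 of the 9 genes passed for the first ratio, beside 2635 of all 12705 genes tested. For the second ratio 1 passed, beside 2712 of all genes. These counts are no result about the 9 genes. For the low polysome to monosome ratio the genes were Mdm2 (0.47, unadjusted p = 0.029), Bax (-0.87, unadjusted p = 0.031) and Bbc3 (-0.51, unadjusted p = 0.048). The Bax ratios were 1.18, 0.79 and 1.505 in WT and -0.29, 1.32 and -0.16 in KO, so that KO gradient 2 differed from the other two, and without it Bax was called (adjusted p = 0.044). The gene at the high to low polysome ratio was Trp53inp1 (-0.44, unadjusted p = 0.024).

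Of 45 other p53 target genes, 42 were tested. Over the mean of fractions 13 were called higher, beside 28.4% of all genes, and 15 lower, beside 28.2%, with a median log2 change of -0.08 against -0.02 for all genes. These counts lie near the background and are no result about the list. Gadd45a, a damage-induced growth arrest gene, rose most, from 7.59 ± 2.20 CPM in WT to 24.3 ± 3.53 CPM in KO (SD, n = 3 gradients, log2 change 1.71, adjusted p = 8.5e-06). Perp, a membrane protein of desmosomes and apoptosis, rose from 15.6 ± 2.61 to 43.0 ± 4.27 CPM (1.47, adjusted p = 1.6e-06), and Bcl6, a transcriptional repressor, rose from 3.14 ± 0.21 to 6.52 ± 0.55 CPM (1.05, adjusted p = 0.00019). Cdkn1a, a cell cycle inhibitor, rose from 460.2 ± 46.8 to 735 ± 8.79 CPM (0.68, adjusted p = 3.8e-05).

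Other targets were lower in KO. Rps27l, a ribosomal protein-like p53 target, fell from 816 ± 92.7 CPM to 385 ± 78.5 CPM (-1.095, adjusted p = 1.6e-05). Pidd1, the core of the PIDDosome, fell from 18.01 ± 2.22 CPM in WT to 8.79 CPM in KO (-1.04, adjusted p = 5.0e-05), and the adenylate kinase Ak1 from 93.1 ± 9.02 to 45.7 ± 2.96 CPM (-1.03, adjusted p = 2.8e-06). In translation level 7 of the 42 targets were called higher, beside 10.7% of all genes, and 2 lower, beside 7.09%. Bcl6 (1.57, adjusted p = 0.0039) and Sesn2, a stress-induced inhibitor of mTORC1 (1.07, adjusted p = 0.0012), were higher, and Pmaip1, which encodes NOXA, was lower (-1.08, adjusted p = 0.014). The number of calls was 4 at equal depth, 5 without WT gradient 1, 4 without WT gradient 2 and 3 without KO gradient 3.

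Among 29 regulators and partners of p53, 27 were tested, and over the mean of fractions 4 were called higher, beside 28.4% of all genes, and 11 lower, beside 28.2% (median -0.09). Trp73, which encodes the p53 relative p73, fell from 8.11 ± 1.15 to 3.12 ± 0.44 CPM (-1.38, adjusted p = 4.1e-05). In translation level 8 of the 27 were called higher, beside 10.7% of all genes, and 2 lower, beside 7.09%, with a median of 0.43 against 0.02 for all genes. The acetyltransferase Crebbp (1.197, adjusted p = 0.0033), the p53-binding protein Trp53bp2 (1.26, adjusted p = 0.0090) and the ubiquitin ligase Huwe1 (1.011, adjusted p = 0.016) were higher. Cdkn2a, whose ARF product inhibits Mdm2, was lower (-1.09, adjusted p = 0.0087). Rpl5, a ribosomal protein that binds Mdm2, had the largest value (1.79, adjusted p = 0.0047) but is uncertain, since it held only 3.39 to 17.2 CPM by group mean and its many processed copies share reads that unique alignment discards. The number of calls was 5 without WT gradient 2 and 4 without KO gradient 3.

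In the BCL2 family and apoptosome list 17 of 19 genes were tested, and over the mean of fractions 5 were called higher and 4 lower (median -0.13), near the 28.4% and 28.2% of all genes. Hrk, a BH3-only protein, fell most, from 25.9 ± 2.40 to 4.98 ± 1.79 CPM (-2.44, adjusted p = 8.7e-07). Of the other BH3-only genes in the list, Bad (0.971, adjusted p = 2.8e-05) and Bid (0.845, adjusted p = 6.9e-05) were called higher. Bcl2l11 was called lower (-0.653, adjusted p = 7.3e-05), and Bmf was not called. No gene of this list was called higher in translation level, beside 10.7% of all genes, and 2 were called lower, beside 7.09%, with a median of -0.49 against 0.02 for all genes. The survival factor Bcl2l2 had the largest value (-1.82, adjusted p = 0.033), at group means of 1.41 to 13.2 CPM. The list had 1 call when WT gradient 2 or KO gradient 3 was left out, and 4 when scaled by library size, with DESeq2 or with only the groups compared.

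**Figure D4:**
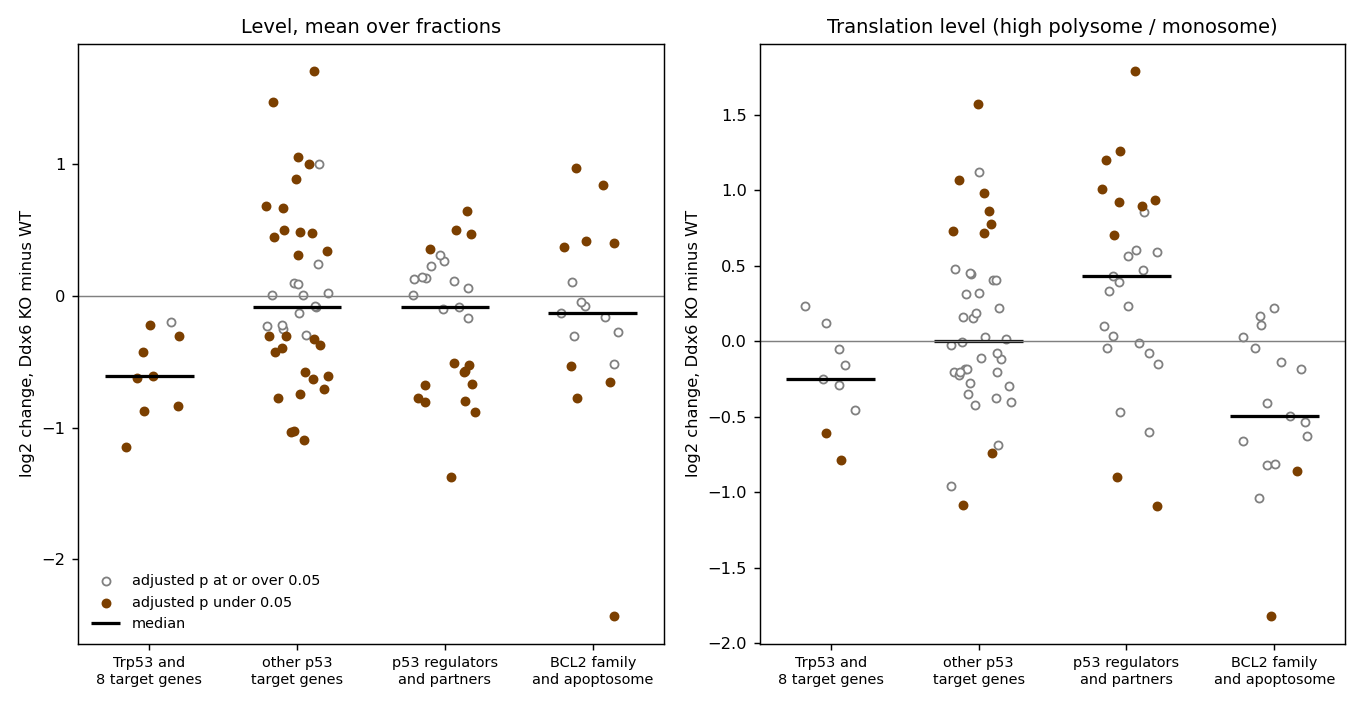
Log2 change, Ddx6 KO minus WT, of every tested gene in Trp53 with its 8 listed targets and in the 3 wider lists, for the level averaged over fractions (left) and for the translation level (right); filled points passed an adjusted p under 0.05 and bars are medians. The 9 genes all lie below 0 on the left, with a median of -0.61, whereas the other p53 targets spread to both sides with a median of -0.08.

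Finally, the genes whose log2 CPM followed Trp53 or Mdm2 most closely over the 18 libraries were sought among 9028 genes with a mean of at least 10 CPM. For Trp53 these were Rrm2 (Pearson's r = 0.969), Mrpl45 (0.965), Psmc2 (0.960), Adh5 (0.958) and Yars (0.958). For Mdm2 they were Ttk (0.884), Rpl36-ps10 (0.872), Fsbp (0.867), Ccnt2 (0.862) and Fam13b (0.837). The 18 points share gradients, fractions and library depth, so these values describe likeness of profile only. None of the 9 genes was among the 5 closest to either.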

How the data were processed

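Polysome fractions of WT and Ddx6 KO ESCs were sequenced as QuantSeq 3′ FWD libraries. Per the labels and the study's methods, the authors trimmed reads with cutadapt 1.14, aligned them to mm10 with STAR 2.5.3a, kept unique alignments and counted reads per gene with featureCounts 1.5.3 (strand option set) on Gencode M14. The deposited counts are raw, with no molecular identifiers mentioned, so PCR copies are among them. Unique alignment undercounts genes with near-identical copies. The 92 spike-in rows, with 28 to 169 counts per library, were left out.

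Genes with at least 3 CPM in at least 3 libraries (12705, holding 99.6% of counts) were scaled by TMM (edgeR 4.0.16) and fitted as 6 group means with limma-voom (limma 3.58.1, R 4.3.3). The study's methods give limma, this filter and the interaction term; TMM and voom were chosen here. Means over fractions were tested with limma on log2 CPM averaged per gradient, 3 against 3. Adjusted p-values are Benjamini-Hochberg over all genes tested, two-sided, with a threshold of 0.05. Single-gradient ratios used a pseudocount of 0.5 CPM. Under TMM, changes are relative to most other genes. The fits were tested on simulated data. DESeq2 1.42.0 was an alternative.

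All 9 genes were named in every comparison. From the lists, genes with an adjusted p under 0.05 and a log2 change over 1 in either direction, in the mean over fractions or the KO effect on translation level, were named, at most 12 per list. Bad, Bid, Bcl2l11 and Bmf were named beside Hrk outside this rule. The members and lists were chosen with earlier results of these data known. Gene coordinates, coding lengths and 3′ UTRs are from Gencode M21 on GRCm38. Promoters and miRNAs are from RefSeq (GRCm38.p6). Fractions with the same number come from the same gradient by the labels; their deviations from group means correlated from -0.16 to 0.42 over 18 pairs.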

Additional observations from a re-analysis of the deposited data

Results flagged for a closer look

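For 2 of the 9 genes the ratio of high polysome to monosome differed between the WT and KO gradients by the interaction term in limma. These were Bbc3, with a log2 difference of -0.79 (adjusted p = 0.035, lower in 3 of 3 KO gradients), and Phlda3, with -0.61 (adjusted p = 0.027, lower in 3 of 3 KO gradients). Groups of 3 libraries were too small for the test of a single library that stands apart.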

How the results depend on the processing

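Across the 9 genes, 10 comparisons and up to 15 alternatives, 1250 values kept direction and call, 37 lost a call, 40 gained one and 23 changed sign. Every sign change was in a value that no fit called. For Trp53 these were the low polysome change (-0.011 at a 10 CPM filter, -0.065 at equal depth, -0.004 with DESeq2, -0.057 to 0.146 without 1 gradient) and the KO effect on high polysome to monosome (-0.001 by library size, -0.082 to 0.299 without 1 gradient). The KO effect on low polysome to monosome changed sign for Zmat3 (-0.044 by library size, -0.031 with no filter, -0.018 at equal depth, -0.035 to 0.058 without 1 gradient) and Trp53inp1 (0.092 at equal depth, -0.149 to 0.078 without 1 gradient), as did the WT low polysome to monosome ratio of Trp53inp1 (0.023 with no filter). The rest arose without 1 gradient, with ranges for Mdm2 of -0.174 to 0.054 in the low polysome and -0.248 to 0.002 in WT low polysome to monosome, and for Phlda3 of -0.024 to 0.195 in the monosome. For the KO effect on high polysome to monosome they were -0.207 to 0.222 for Mdm4 and -0.519 to 0.142 for Bax, and on high to low polysome -0.296 to 0.061 for Ccng1.

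The number of the 9 genes called in the KO effect on translation level (2) was 1 at equal depth and 0 to 1 without 1 gradient, and 3 by library size, with DESeq2 and with only the groups compared. For low polysome to monosome it was 0 to 1, and for the WT low polysome to monosome ratio (5) it was 3 without WT gradient 1. In translation level, other targets (9 calls) gave 4 at equal depth and 3 to 7 without 1 gradient. Regulators (10) gave 6 with no filter and 4 to 11, and the BCL2 list (2) gave 4 by library size, with DESeq2 and with only the groups compared, and 1 to 3 without 1 gradient. Over all genes the KO effect on translation level (1357 higher and 901 lower) gave 742 to 1393 calls in 4 of 6 fits without 1 gradient. For low polysome to monosome (598) there were 1073 with DESeq2, 287 with only the groups compared and 27 to 338 in 4 of these 6 fits. For high to low polysome (562) there were 1023, 197 and, in 5 of them, 0 to 260, with 351 under no filter and 287 at equal depth. WT high polysome to monosome called 15269 genes with no filter. The causes were not tested. Scaling by library size moved the median KO effect on translation level of all genes from 0.022 to -0.102.

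The comparisons of KO with WT were refitted with the replicate number as a block. Then 8, 6, 5 and 6 of the 9 genes were called lower for the mean over fractions, monosome, low and high polysome. The translation level was refitted with the gradient as a block, and 2 genes were called lower. Bbc3 in the monosome was the only call gained among them (adjusted p = 0.032) and none was lost. WT and KO gradients share only a number (r from -0.446 to 0.223 over 9 pairs). A pseudocount of 2 CPM moved no ratio beyond its SD. Depth limits the WT monosome libraries, where the 9 genes held 184 to 1342 counts.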
